A study of Mus musculus with 8 samples.

Results

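The replication-dependent histone genes supply the core histones H2A, H2B, H3 and H4 and the linker histone H1 that package newly made DNA. They were taken here as every non-control probe whose gene name begins with Hist1h, Hist2h, Hist3h or Hist4h, with 1 probe per gene, the one with the highest mean processed signal. This gave 49 genes (54 probes) of 31539 named genes on the array. Tests covered 48 of them, whose signal cleared background on both replicates in 1 group or more, among 19049 genes tested in all. Hist1h1d, a linker histone gene, did not meet this filter and is given no difference. The tested genes comprised 5 of H1, 14 of H2A, 12 of H2B, 8 of H3 and 9 of H4. By name, 35 lay in the Hist1 cluster, 9 in Hist2, 3 in Hist3 and 1 in Hist4. The naming rule also takes in genes known mainly from testis (Hist1h1t, Hist1h2aa and Hist1h2ba) and entries named as pseudogenes (Hist3h2bb-ps and Hist2h3c2-ps).

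The cells were early erythroid progenitors from the fetal liver of C57BL/6 mouse embryos at E14.5. They had been depleted of mature and other progenitor cells (positive for lineage markers, Sca-1, CD16/32, CD41 or CD34) and then sorted as c-kit positive with the lowest 10% of CD71. After infection they were cultured for 3 days. Single-colour arrays measured 8 samples, 2 in each of 4 groups: shRNA1 against an RNA-binding protein with DEX, shRNA2 against the same protein with DEX, control virus with DEX, and control virus without DEX. DEX is a glucocorticoid per the series title. The name of the RNA-binding protein, Zfp36l2, is not in the labels and is taken here from what is known of the publication. All groups carry a virus, and there was no knockdown without DEX. Replicate 1 of every group lay on slide 1 and replicate 2 on slide 2, and the labels do not say whether replicates were separate cultures, so the p-values rest on a spread between arrays that could be technical only.

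Most replication-dependent histone genes are transcribed in S phase, and their mRNAs end in a conserved stem-loop instead of a poly(A) tail. The stem-loop is bound by SLBP, which acts in the maturation, translation and decay of the mRNA, and the 3′ end is cut with the help of the U7 small nuclear ribonucleoprotein. Some members, chiefly in differentiated or non-dividing cells, also give longer polyadenylated mRNAs from downstream sites. Erythroid precursors divide rapidly while their nuclei condense, so histone supply accompanies their maturation.

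All 39429 probes were searched on the probe strand for the usual histone stem-loop, the letters in capitals in Hist1h3a below, and 4 probes held it, all of them members. A general form of the stem-loop that allows other bases in its pairs and loop was found in 6 probes (0.0152% of the array), again all members. Below, 30 bases of each of these 6 probes are shown because they place the probe relative to the mRNA end, with the stem-loop in capitals. The probe of Hist1h2ae begins inside the stem-loop, and its first 30 bases follow.
Hist1h3a: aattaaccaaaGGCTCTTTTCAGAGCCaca
Hist1h3g: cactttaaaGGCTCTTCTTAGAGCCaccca
Hist1h3i: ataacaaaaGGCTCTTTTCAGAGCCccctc
Hist1h4m: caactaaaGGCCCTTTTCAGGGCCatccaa
Hist2h2bb: acccaaaaGGCTCTTTTCAGAGCCacttta
Hist2h2aa1: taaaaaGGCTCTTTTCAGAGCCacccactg
Hist1h2ae: CTTTTCAGAGCCattcacttaattcagtaa
In the first 5 the probe ends 3 to 6 bases past the stem-loop. In Hist2h2aa1, a member of H2A, another 38 bases of probe follow it, so most of the probe lies downstream of the usual mRNA end. The Hist1h2ae probe holds only the last 12 bases of the stem-loop and then lies downstream.

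The Hist2h2aa locus carries a pair of probes on the same strand of chromosome 3 in build mm9. The coding-end probe named Hist2h2aa2 (chr3:96049837-96049896) lies 52 bases before the downstream probe of Hist2h2aa1 (chr3:96049949-96050008). Both are on the plus strand by the array's positions. The RefSeq window of Hist2h2aa1 is on the plus strand too, but that of Hist2h2aa2 is on the minus strand. By position the coding-end probe may therefore lie in Hist2h2aa1, and its gene name is only that of the array. The coding-end probe is shown in full because it is set beside the downstream one below and has no capitals because no stretch is singled out.
Hist2h2aa2: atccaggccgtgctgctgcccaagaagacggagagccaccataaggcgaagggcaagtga
A poly(A) signal hexamer, AATAAA, was present in 4965 of 39429 probes (12.6%), searched on the probe strand. Among members it was present in the probes of Hist3h2ba and Hist1h2ag, and ATTAAA, found in 4.56% of all probes, in that of Hist1h2be. The stretches with these hexamers in capitals are shown because such letters can act as a poly(A) signal, but their use was not tested. In Hist1h2ag the hexamer takes in a TAA that is a stop codon when read in the frame of the similar Hist2h2aa2 coding end. Its presence there is therefore no sign of a polyadenylated mRNA.
Hist3h2ba: gttcataatggtattAATAAAtttggttca
Hist1h2be: gtactgttcattATTAAAgcattcctgatt
Hist1h2ag: aaggccaaggggaAATAAAaccctttatac
No annotation of build mm9 was used, so exons and untranslated regions are not assigned to the probes.

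RefSeq windows of 300 bases (GRCm38.p6, 250 before to 50 after the start) were found for 43 members. Both strands were searched for 4 motifs, and their matches did not overlap one another in the 250 bases before the start. The octamer ATTTGCAT, known as an element of H2B promoters, was in 12 of the 43 windows (27.9%), against 1.74% of all 32851 windows. Those 12 were 7 of 14 H2A and 5 of 9 H2B windows, and none of the H1, H3 or H4 windows held these letters. Some H2A and H2B windows overlap on opposite strands, as those of Hist1h2aa with Hist1h2ba and of Hist1h2ae with Hist1h2bg. In these pairs the same octamer was counted for both genes, so the 12 windows are not 12 separate elements. CCAAT was in 37 windows (86%, against 37.4% of all), in every one outside H4 and in 2 of 8 for H4. TATAAA was in 26 windows (60.5%, against 13.6%). AAACACA, known from H1 promoters, was in 9 windows (20.9%, against 7.18%), 5 of them among the 6 H1 windows. H2B and H1 promoters are printed as examples of these family elements, 250 bases before the start, with all matches in capitals.
Hist2h2bb (chr3:96269450-96269699, plus strand): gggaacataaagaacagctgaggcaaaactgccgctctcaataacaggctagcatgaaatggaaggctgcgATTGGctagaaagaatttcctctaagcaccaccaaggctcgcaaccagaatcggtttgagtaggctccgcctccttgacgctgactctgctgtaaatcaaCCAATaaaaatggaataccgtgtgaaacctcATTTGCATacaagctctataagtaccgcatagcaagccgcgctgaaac
Hist1h2bb (chr13:23746484-23746733, plus strand): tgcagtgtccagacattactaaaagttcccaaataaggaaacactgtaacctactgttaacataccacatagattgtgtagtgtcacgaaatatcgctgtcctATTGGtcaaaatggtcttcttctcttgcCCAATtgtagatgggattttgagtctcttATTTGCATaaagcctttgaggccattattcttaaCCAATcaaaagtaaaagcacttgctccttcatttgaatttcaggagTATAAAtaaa
Hist1h1b (chr13:21780626-21780875, minus strand): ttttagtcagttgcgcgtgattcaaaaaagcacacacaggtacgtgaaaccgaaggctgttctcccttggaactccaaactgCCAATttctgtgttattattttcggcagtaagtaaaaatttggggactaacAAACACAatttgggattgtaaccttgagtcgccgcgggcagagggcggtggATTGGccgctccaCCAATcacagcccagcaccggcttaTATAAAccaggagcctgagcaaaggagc
Hist1h1e (chr13:23622559-23622808, minus strand): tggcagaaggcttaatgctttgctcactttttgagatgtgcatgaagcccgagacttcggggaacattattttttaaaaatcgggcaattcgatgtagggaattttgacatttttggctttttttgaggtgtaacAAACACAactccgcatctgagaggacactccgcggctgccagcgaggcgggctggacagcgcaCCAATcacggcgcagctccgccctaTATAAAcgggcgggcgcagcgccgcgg

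The level of a gene is given as log2 of its processed signal minus log2 of its array's 75th percentile, and differences are on the same log2 scale with the standard error (SE) of the limma fit. The 75th percentile ranged from 476 to 2061 signal units over the 8 arrays, no spot was saturated, and 59.5% to 62.9% of spots were well above background. Zfp36l2, the gene targeted by the shRNAs, had levels of 4.09 and 3.91 with shRNA1 and 4.13 and 3.69 with shRNA2, against 5.56 and 5.42 in control cells with DEX. Without DEX, control cells had 3.49 and 3.86. Control cells with DEX overlapped with none of the other 3 groups, but the lowest adjusted p of these 3 tests was 0.39 in limma's fit with no block. All 11 erythroid markers, globin and haem synthesis genes among them, were well above background on both arrays of every group. The median difference of all genes moved by more than 0.1 between scalings, so the medians of the histone families and main lists are also given relative to the median of all genes.

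With DEX, 45 of the 48 histone genes had lower mean levels in control cells than without DEX. The median difference was -0.52, a fold of 0.699, against -0.08 for all genes. It was -0.67 on slide 1 and -0.33 on slide 2. A total of 43 genes were lower on both slides, against 40.5% of all genes, and 37 were below the median of all genes on both slides, against 30.3%. In 27 genes both DEX arrays lay below both arrays without DEX (17.2% of all genes), and in none did they lie above (10.1%). With each array's median as the scale, 43 of 48 genes were lower and 33 were lower on both slides (23% of all genes); with quantile normalization, 45 and 36 (32.9%).

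No histone gene passed limma's test at an adjusted p under 0.05, with or without the slide as a block (0% and 0.22% of all genes). At an unadjusted p under 0.05 there were 2 genes (3.15% of all genes), and 16 with the block (9.53%). The 2 were Hist2h2bb and Hist1h2ba, an H2B gene known mainly from testis. Hist2h2bb, an H2B gene whose probe ends at the stem-loop, had levels of 2.91 and 3.29 with DEX, against 4.05 and 3.78 without. Its difference was -0.81 (SE 0.29). Hist1h2ba had 3.40 and 3.54 with DEX, against 4.30 and 4.01 without, a difference of -0.68 (SE 0.28). In both genes the groups did not overlap, and the adjusted p was 1.00.

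The 5 lowest differences were in Hist2h2aa1, Hist3h2ba, Hist3h2a, Hist2h2ab and Hist1h2bc. Hist2h2aa1 had levels of 0.27 and -2.48 with DEX, against 1.45 and -0.68 without, a difference of -1.49 (SE 1.82). Hist3h2ba, an H2B gene, had -1.43 and -2.20 with DEX, against 0.35 and -1.16 without, a difference of -1.41 (SE 0.58). Only these 2 were at least 2-fold lower on both slides (2.08% of all genes), and of these the groups overlapped in Hist2h2aa1 and not in Hist3h2ba. Hist3h2a, the H2A gene of the same small cluster, had -0.20 and -1.47 with DEX, against 1.50 and -0.59 without, a difference of -1.29 (SE 0.92). Hist2h2ab had -4.96 and -4.15 with DEX, against -3.54 and -3.61 without, with no overlap and a difference of -0.98 (SE 0.41). Hist1h2bc had 1.13 and 0.01 with DEX, against 2.12 and 0.95 without, overlapping between slides, a difference of -0.96 (SE 1.15).

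By family, the median difference with DEX was -0.49 for H1, -0.18 for H2A, -0.50 for H2B, -0.48 for H3 and -0.56 for H4. Relative to all genes these were -0.41, -0.09, -0.42, -0.40 and -0.48. All 8 H3 genes, between -0.72 and -0.34, were lower on both slides, as were 8 of 9 H4 genes. Among the linker histones, Hist1h1e had 4.54 and 4.37 with DEX, against 5.48 and 4.61 without. Hist1h1b had 3.62 and 4.32 with DEX, against 4.50 and 4.72 without, and Hist1h1a had 1.48 and 1.75, against 2.23 and 1.98. The groups of these 3 H1 genes did not overlap. The other 2 tested H1 genes were not lower on both slides: Hist1h1c was at 0.12 on slide 1 and -0.79 on slide 2, and Hist1h1t, a linker histone gene of testis, at 0.06 and -0.31. Hist1h4c, an H4 gene, had 1.44 and 1.93 with DEX, against 2.44 and 2.27 without, the lowest H4 difference at -0.67 (SE 0.33).

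Few members lay at or above zero with DEX. Hist2h2be, an H2B gene, had -1.54 and -2.37 with DEX, against -1.83 and -2.48 without, a difference of 0.20 (SE 0.41). Hist1h2an, an H2A gene, had 8.57 and 7.96 with DEX, against 8.55 and 7.80 without, a difference of 0.09 (SE 0.53). Hist1h4h, at 0.00, was higher on slide 1 by 0.37 and lower on slide 2 by 0.36 in value. Hist1h2ah and Hist1h2ae were both at -0.08. Groups overlapped in all 5 of these genes. Left out of the fit, the control array without DEX on slide 1 took the median relative to all genes to -0.26, against -0.43 with all arrays. In the fit without a block, 33 of 48 genes were then lower. Without the control array with DEX on slide 2, 32 were lower, and without either of the other control arrays 48 were. With the block these counts were 40 or 45.

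**Figure D1:**
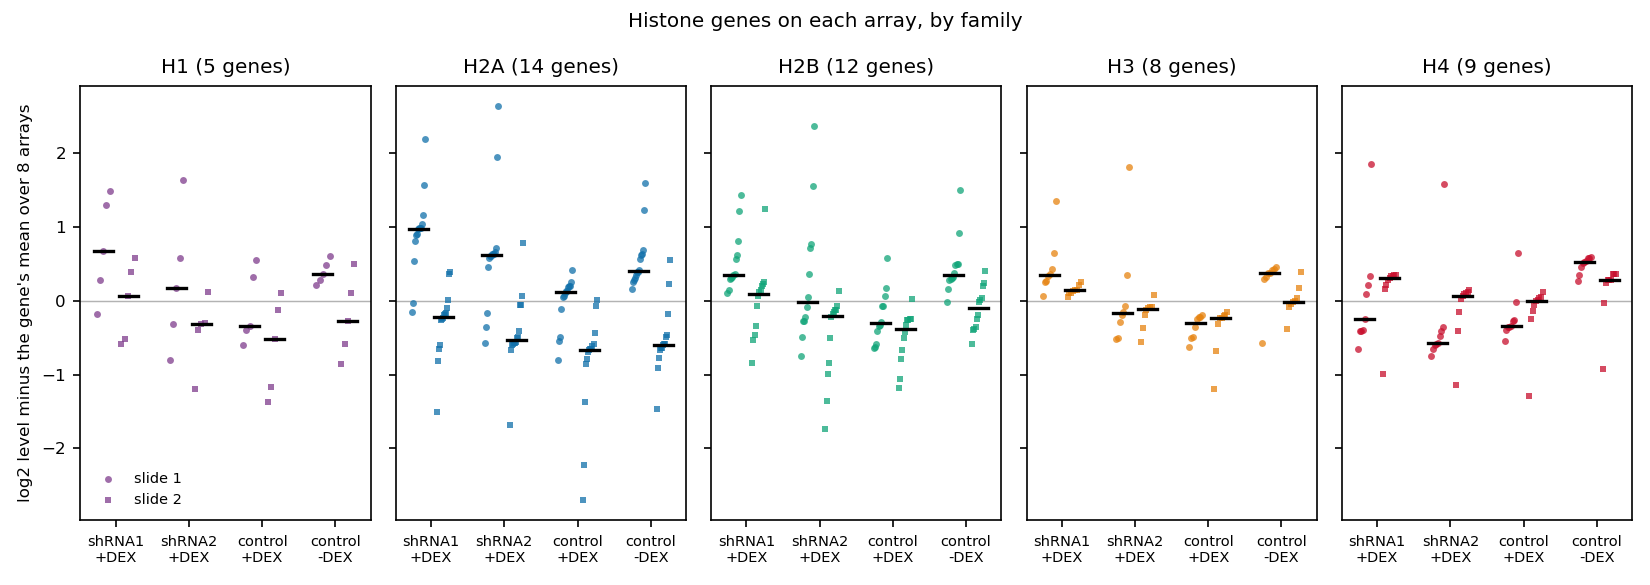
Log2 level of each tested histone gene on each array minus that gene's mean over the 8 arrays, by family; circles are slide 1, squares slide 2, and black bars the family's median on that array. In all 5 families the bars of control cells with DEX lie below those without DEX on the same slide.

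With shRNA1, 47 of the 48 genes had higher mean levels than in control cells with DEX, a median difference of 0.52 (a fold of 1.43) against 0.18 for all genes. It was 0.68 on slide 1 and 0.40 on slide 2. On both slides 43 genes were higher, against 49.3% of all genes, and 41 were above the median of all genes, against 37.3%. In 23 genes both shRNA1 arrays lay above both control arrays (17.8% of all genes), and in none below (7.61%). Scaling to each array's median shifted all genes alike, to a median of -0.22 for all genes, so that 36 of 48 members were higher, while the histone median relative to all genes stayed at 0.34 and that of H4 at 0.04. With quantile normalization 42 genes were higher, and with the authors' deposited values 40. This comparison and those with DEX and with shRNA2 share the control arrays with DEX, so their values are set side by side only.

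No gene passed limma's test, with or without the block (0% of all genes in each). At an unadjusted p under 0.05 there were 2 genes (2.11% of all genes), and 18 with the block (17.8%). These 2 were Hist2h2bb, with 3.84 and 3.79 with shRNA1 against 2.91 and 3.29 in control cells (0.71, SE 0.29), and Hist3h2bb-ps. Hist3h2bb-ps, an H2B pseudogene by name, had -4.66 and -4.03 with shRNA1, against -5.62 and -5.53 in control cells, a difference of 1.23 (SE 0.41). Neither overlapped between groups, and the adjusted p of each was 0.92.

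The largest differences with shRNA1 were in Hist2h2aa1 and Hist2h3c2-ps, the only members at least 2-fold higher on both slides (3.04% of all genes); no member was 2-fold lower on both (0.609%). Hist2h2aa1 had 2.42 and -0.59 with shRNA1, against 0.27 and -2.48 in control cells, a difference of 2.02 (SE 1.82). Hist2h3c2-ps, an H3 pseudogene by name, had -2.83 and -4.04, against -4.81 and -5.38, a difference of 1.66 (SE 0.82) with no overlap. Hist1h2aa, an H2A gene of testis, had -1.82 and -2.96, against -3.52 and -3.57, with no overlap and a difference of 1.15 (SE 0.49). Hist1h2bq was at 1.07 (SE 1.35), nearly all of it from slide 1 (2.01, and 0.13 on slide 2).

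The median difference with shRNA1 was 0.66 for H1, 0.65 for H2A, 0.50 for H2B and 0.49 for H3, and 0.22 for H4. Relative to all genes these were 0.48, 0.47, 0.32, 0.31 and 0.04. All 5 H1, 14 H2A and 8 H3 genes and 11 of 12 H2B genes were higher on both slides, and 5 of 9 H4 genes were. Hist1h1e had 5.56 and 4.94 with shRNA1, against 4.54 and 4.37 in control cells (0.79, SE 0.43). Hist1h1a had 2.15 and 2.27, against 1.48 and 1.75 (0.60, SE 0.28), and both linker histone genes were free of overlap. Hist1h3g had 1.28 and 0.78 with shRNA1, against 0.28 and -0.06, a difference of 0.92 (SE 0.38).

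The 5 lowest differences with shRNA1 were those of 4 H4 genes and Hist2h2be, and all 5 were on opposite sides of zero on the 2 slides. Hist1h4d had 5.30 and 6.29 with shRNA1, against 5.70 and 6.07 in control cells, a difference of -0.09 (SE 0.46). Hist2h4 was at 0.07 (SE 0.39), Hist1h4k at 0.12 (SE 0.42) and Hist4h4 at 0.16 (SE 0.41), and Hist2h2be at 0.08 (SE 0.41). For Hist2h4 the array has a second, dimmer probe, and that probe differed by 1.39 with shRNA1. The second probe of Hist1h4k differed by 0.13, close to the first. The second probe of Hist4h4 was well above background on no array.

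With shRNA2, 35 of the 48 genes had higher mean levels than in control cells with DEX, a median difference of 0.21 against 0.02 for all genes. It was 0.23 on slide 1 and 0.10 on slide 2. On both slides 27 genes were higher (27.3% of all genes) and 2 lower (25.1%), and 25 were above the median of all genes on both (25.9%). In 9 genes the shRNA2 arrays lay above both control arrays (7.34% of all genes) and in 2 below (8.08%). Scaling to each array's median shifted all genes alike, to -0.23 for all genes and -0.04 for the members (21 of 48 higher), while the histone median relative to all genes stayed at 0.19. With quantile normalization 32 were higher, and with the authors' deposited values 28. No gene passed limma's test with or without the block (0% and 0.00525% of all genes). None had an unadjusted p under 0.05 (1.25% of all genes), and 6 did with the block (5.74%).

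Hist1h2ac, an H2A gene whose human counterpart also gives polyadenylated mRNA, had the largest difference with shRNA2. Its levels were -0.49 and -1.66 with shRNA2, against -2.19 and -4.68 in control cells, a difference of 2.36 (SE 1.34) with no overlap. Hist2h2aa1 had 2.87 and -1.46, against 0.27 and -2.48, a difference of 1.81 (SE 1.82) with overlap between slides. These 2 genes were the only members at least 2-fold higher on both slides (0.761% of all genes), and no member was 2-fold lower on both (0.262%). Hist2h3c2-ps had -2.37 and -4.74, against -4.81 and -5.38, a difference of 1.54 (SE 0.82) without overlap. Hist1h2bg, an H2B gene, had -1.47 and -2.11, against -2.18 and -3.03, without overlap, a difference of 0.82 (SE 0.50). Hist1h2bq, at 0.94 (SE 1.35), was 2.95 on slide 1 and -1.08 on slide 2, and it was well above background on 1 of the 2 shRNA2 arrays.

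At the other end with shRNA2, Hist2h2be had -2.39 and -2.63, against -1.54 and -2.37 in control cells, a difference of -0.56 (SE 0.41) without overlap. Hist3h2bb-ps, not well above background on either shRNA2 array, had -5.36 and -6.27 against -5.62 and -5.53 in control cells. The groups overlapped, and its difference of -0.24 was 0.33 with normexp background correction. H4 genes followed: Hist1h4d was at -0.19 (SE 0.46), Hist1h4j at -0.16 (SE 0.40) and Hist1h4i at -0.15 (SE 0.30), and each was lower on slide 1 and higher on slide 2. A second probe of Hist1h4i, well above background on all 8 arrays, went the other way, at 0.18. The family medians with shRNA2 were 0.31 for H1, 0.30 for H2A, 0.23 for H2B, 0.14 for H3 and -0.12 for H4. Relative to all genes these were 0.29, 0.28, 0.21, 0.12 and -0.14. All 14 H2A genes were higher, and 7 of 9 H4 genes were lower, in mean level.

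Between the shRNAs, 44 of 48 genes had higher mean levels with shRNA1 than with shRNA2, a median difference of 0.35 against 0.12 for all genes. On both slides 37 genes were higher (45.2% of all genes) and 36 were above the median of all genes (32.6%). The shRNA1 arrays lay above both shRNA2 arrays in 18 genes (12% of all genes) and below in none (4.7%). Without the shRNA1 array on slide 1, or without the shRNA2 array on slide 2, 28 of 48 were higher in the fit without a block. No gene passed limma's test with or without the block (0% of all genes in each). At an unadjusted p under 0.05 there was 1 gene (2.39% of all genes), and 7 with the block (10.9%). That gene, Hist3h2bb-ps, had -4.66 and -4.03 with shRNA1, against -5.36 and -6.27 with shRNA2, with an adjusted p of 1.00. It was not well above background on either shRNA2 array, so the size of its difference is uncertain. With normexp background correction the difference was 0.47, against 1.47.

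Hist1h2aa had -1.82 and -2.96 with shRNA1, against -3.14 and -3.39 with shRNA2, a difference of 0.87 (SE 0.49). Hist3h2ba had -0.57 and -0.94, against -1.89 and -1.30, a difference of 0.84 (SE 0.58), and Hist1h1a had 2.15 and 2.27, against 1.55 and 1.57, a difference of 0.65 (SE 0.28). Hist2h2be had -1.76 and -1.97, against -2.39 and -2.63, a difference of 0.64 (SE 0.41). None of these 4 genes overlapped between the shRNAs. Hist1h2ac lay lowest, with -0.88 and -3.96 with shRNA1, against -0.49 and -1.66 with shRNA2, a difference of -1.34 (SE 1.34). Hist1h2bg was at -0.52, Hist1h2ae at -0.35, Hist1h2be at -0.12 and Hist3h2a at 0.05.

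**Figure D2:**
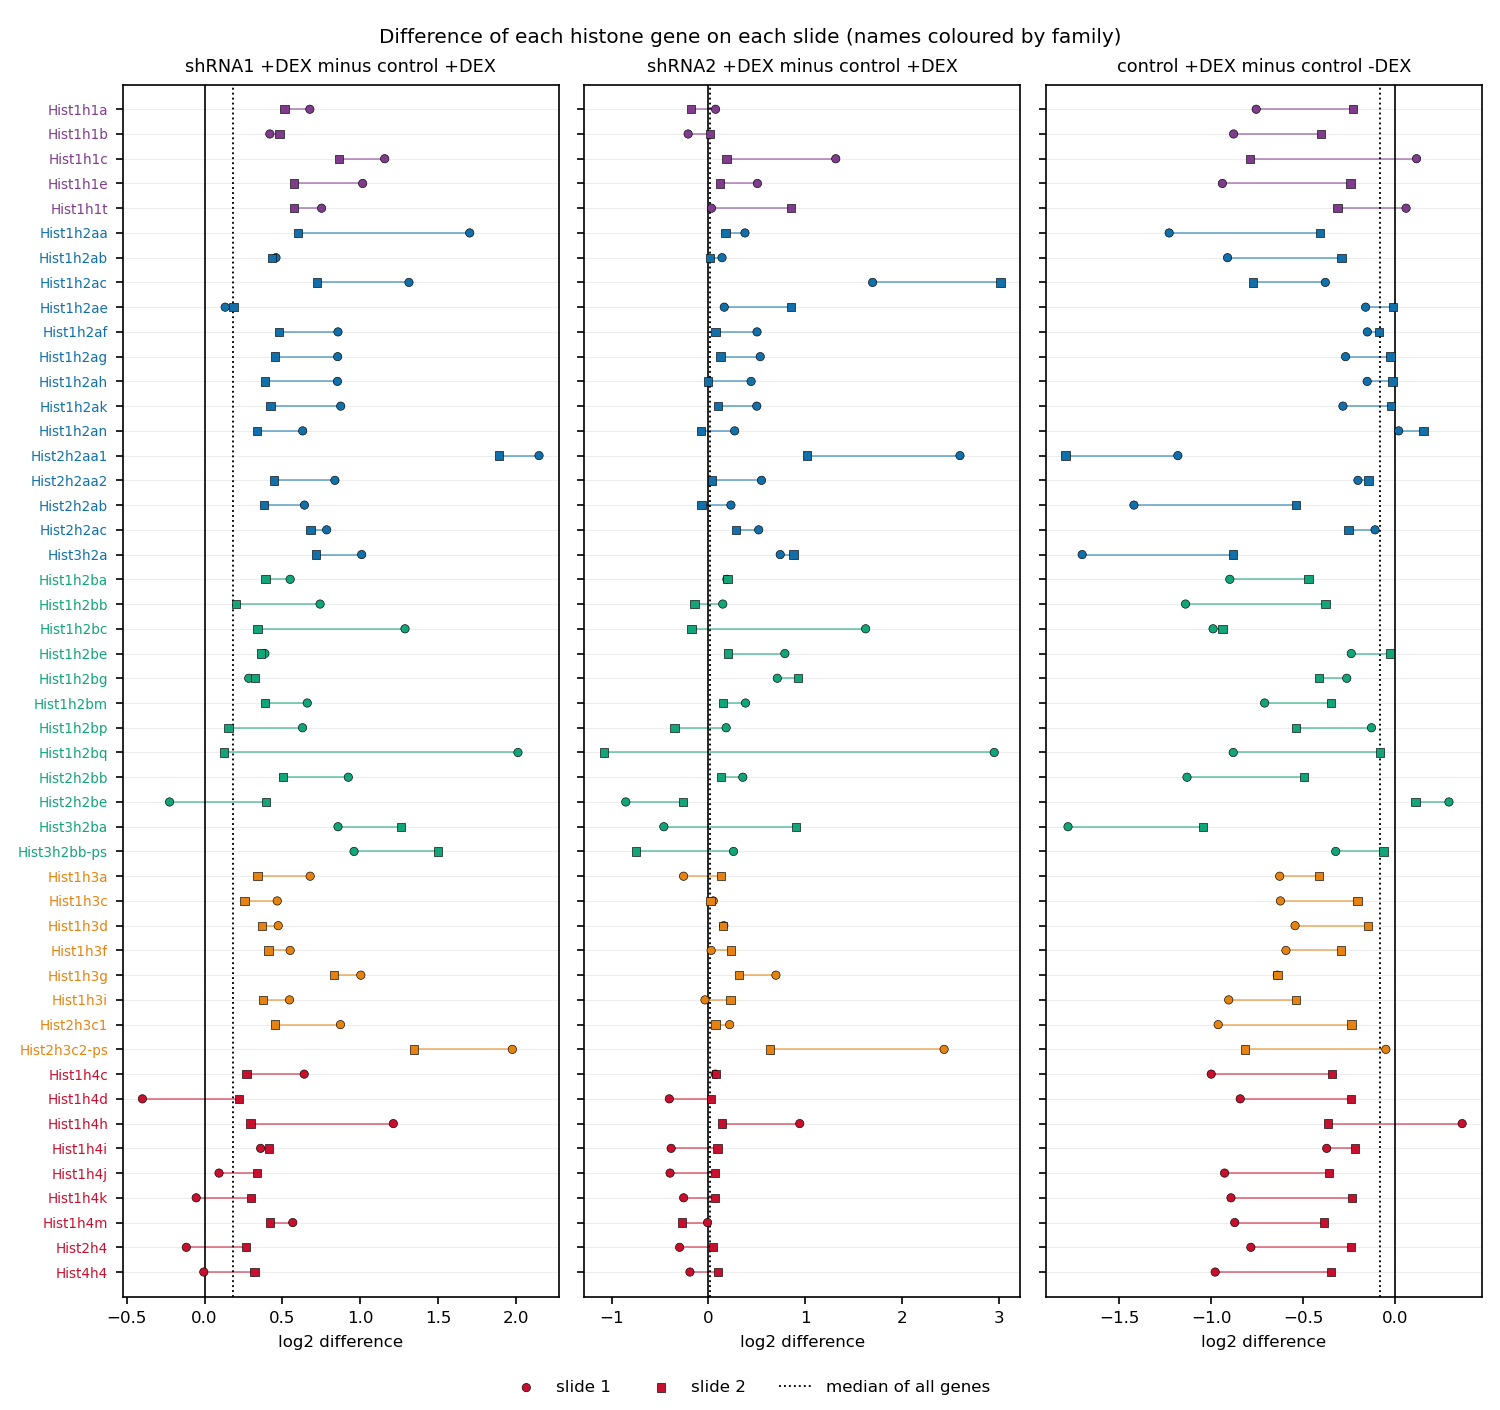
Log2 difference of each tested histone gene on slide 1 (circles) and slide 2 (squares), for shRNA1 and shRNA2 against control cells with DEX, and for control cells with against without DEX; dotted lines are the median of all genes, and each panel has its own scale. With shRNA1 43 genes lie right of zero on both slides, with shRNA2 27, and with DEX 43 lie left of zero on both.

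The 5 probes that end at the stem-loop had differences of like size in the DEX and shRNA1 comparisons. With DEX they lay between -0.81 and -0.52, and all 5 were lower on both slides. With shRNA1 they lay between 0.46 and 0.92, higher on both slides in all 5, and with shRNA2 between -0.14 and 0.51. The probe of Hist2h2aa1, which runs past the stem-loop, differed by -1.49 with DEX, 2.02 with shRNA1 and 1.81 with shRNA2. The coding-end probe named Hist2h2aa2, 52 bases upstream and possibly in the same gene, differed by -0.17, 0.64 and 0.29 in the same comparisons. Its levels were 9.41 and 8.34 with shRNA1, 9.12 and 7.93 with shRNA2, 8.57 and 7.90 in control cells with DEX, and 8.77 and 8.04 without. The Hist1h2ae probe, also downstream of the stem-loop, differed by -0.08, 0.16 and 0.51. The 2 downstream probes thus differed in size from each other, and the downstream probes were not tested against the others. The Hist2h2bb probe shares a run of 21 letters, the stem-loop and its neighbours, with those of Hist1h3a and Hist1h3i.

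Hist2h2aa1 was also the member with the largest gap between slides. Its slide 1 level exceeded its slide 2 level by 3.01 with shRNA1, 4.33 with shRNA2, 2.75 in control cells with DEX and 2.14 without. Among all members 25 of 48 were higher on slide 1 in all 4 groups, and only Hist1h1b was higher on slide 2 in all 4. The share of all genes that did so was not counted. The median of all genes was also higher on slide 1 in every group, but with quantile normalization it was lower on slide 1 in every group. Whether this count is particular to histone genes was not tested. Hist1h2ac, Hist1h4h, Hist1h1c and Hist1h2bc followed Hist2h2aa1, with mean gaps from 2.21 down to 1.82. Hist1h2ac, Hist1h1c, Hist1h2bc and Hist2h2aa1 are among the 8 listed members with human counterparts known to give polyadenylated mRNA. The 7 tested genes of that list had a median difference of -0.58 with DEX, 0.86 with shRNA1 and 0.75 with shRNA2, beside -0.52, 0.52 and 0.21 for all members. Their slide medians were 1.16 and 0.71 with shRNA1, and 1.32 and 0.19 with shRNA2. With DEX they were -0.38 on slide 1 and -0.79 on slide 2, beside -0.67 and -0.33 for all members. RNA quality and slide were not tested as sources of these gaps.

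**Figure D3:**
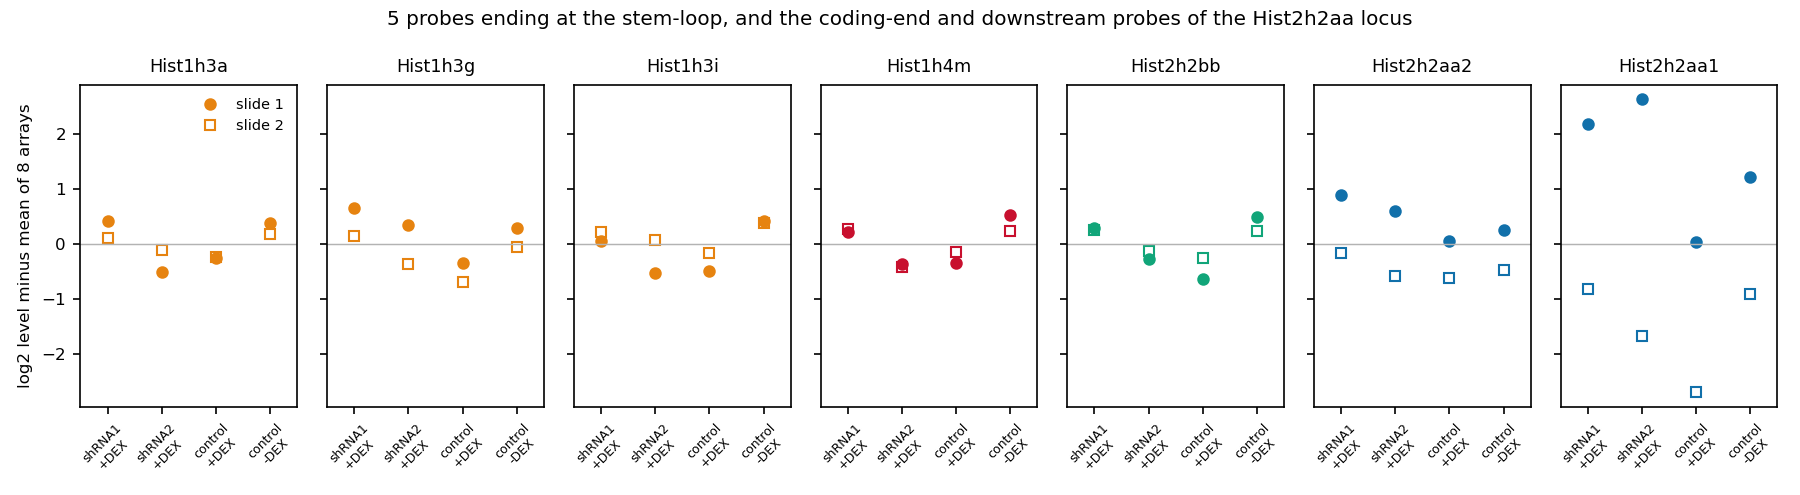
Log2 level on each array minus the gene's mean over the 8 arrays for the 5 probes that end at the stem-loop, the coding-end probe of Hist2h2aa2 and the downstream probe of Hist2h2aa1; filled circles are slide 1 and open squares slide 2. In Hist2h2aa1 slide 1 lies 2.14 to 4.33 above slide 2 in each group.

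The bright H2A genes need separate mention because their values depend on the scale. In 7 of them (Hist1h2af, Hist1h2ag, Hist1h2ah, Hist1h2ak, Hist1h2an, Hist2h2aa2 and Hist2h2ac) the signal lay between 237890.2 and 514435 units on every array. Within a gene the highest array exceeded the lowest by 1.51 to 2.16 times, while the 75th percentile used as the scale varied 4.33-fold. Hist1h2ah had 9.60 and 8.29 with shRNA1, 9.19 and 7.89 with shRNA2, 8.75 and 7.90 in control cells with DEX, and 8.90 and 7.91 without. Its difference with shRNA1 was 0.62 (SE 0.69), but 0.22 with each array's median as the scale, 0.03 with quantile normalization and -0.06 in the authors' deposited values. Hist1h2an likewise was at 0.48 (SE 0.53), and at -0.08 with quantile normalization. Probes of these genes share runs of 20 to 42 letters with one another, so the value of any 1 of these near-identical genes is uncertain.

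With quantile normalization the H2A median with shRNA1 was 0.13, against 0.60 for H1, 0.44 for H2B, 0.51 for H3 and 0.24 for H4. With that setting the H4 median relative to all genes was 0.24, against 0.04 with the 75th percentile. Without the 11 members of mean signal 100000 or more, the remaining 37 had a median relative to all genes of 0.33 with shRNA1, against 0.34 with all 48, and -0.49 with DEX, against -0.43. Leaving out the 15 members whose probe shares a run of at least 20 letters with another member's gave 0.33 and -0.48. Both subsets were chosen after the data were seen. Beyond the H2A group, Hist1h3c and Hist1h3f shared a run of 36 letters and Hist1h4d and Hist1h4j one of 20.

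Genes that act on histone mRNA or in S phase had negative medians with both shRNAs, where the histone medians were positive, but with shRNA2 these came from slide 1. On slides 1 and 2 with shRNA2 the S phase median was -0.68 and -0.0083, that of histone mRNA processing -0.54 and -0.0016, and that of G2 and M phase -0.90 and 0.077. None of these genes passed limma's test in any comparison, the lowest adjusted p being 0.23 with the block. The 46 tested S phase genes, of 50 listed, had a median difference of -0.18 with shRNA1, with 34 lower, but -0.44 on slide 1 and 0.09 on slide 2. With shRNA2 it was -0.35, with 42 lower, and with DEX -0.32, with 44 lower. With DEX the slide 1 and slide 2 medians were -0.50 and -0.085, or -0.40 and -0.033 relative to all genes. Relative to all genes the S phase medians were -0.36 with each shRNA and -0.24 with DEX. On both slides 37 of the 46 were lower with DEX (40.5% of all genes), 12 with shRNA1 (26.6%) and 25 with shRNA2 (25.1%), so the share with shRNA1 was near that of all genes. Tk1, thymidine kinase, was at -0.79 and Ccne1, cyclin E1, at -0.77 with DEX. With shRNA1 E2f2, an E2F transcription factor, was at 0.98 and Rpa2, a subunit of the single-strand DNA-binding protein RPA, at -0.73. With shRNA2 Ccna2, cyclin A2, was at -0.78 and Pcna, the polymerase clamp, at -0.56.

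The histone and S phase medians lay apart on single arrays. Relative to each gene's mean, the histone median was 0.40 and 0.10 with shRNA1, -0.07 and -0.20 with shRNA2, -0.25 and -0.38 in control cells with DEX, and 0.41 and -0.07 without. The S phase median was -0.81 and 0.56 with shRNA1, -1.03 and 0.50 with shRNA2, -0.32 and 0.42 with DEX, and 0.19 and 0.53 without. On this scale histone medians were thus higher on slide 1 and S phase medians higher on slide 2 in every group. The median of all genes was also higher on slide 1 in every group. On slides 1 and 2 it was 0.24 and -0.0037 with shRNA1, and 0.06 and -0.15 with shRNA2. In control cells it was -0.02 and -0.11 with DEX, and 0.07 and -0.03 without. With quantile normalization the histone median in control cells with DEX was -0.218 and -0.211, and the median of all genes was lower on slide 1 in every group. The G2 and M phase genes, 20 tested of 23, had medians of -0.05 with shRNA1, -0.37 with shRNA2 and -0.28 with DEX, or -0.23, -0.39 and -0.20 relative to all genes. Their slide 1 and slide 2 medians had opposite signs with shRNA1, at -0.34 and 0.21, and were -0.42 and -0.20 with DEX.

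The 23 tested histone mRNA processing genes, of 24 listed, had medians of -0.44 with shRNA1 (18 lower), -0.27 with shRNA2 (19 lower) and -0.04 with DEX (14 lower), or -0.62, -0.29 and 0.04 relative to all genes. Slbp, the stem-loop binding protein, had -0.16 and 1.56 with shRNA1, 0.05 and 1.65 with shRNA2, 0.87 and 1.78 in control cells with DEX, and 1.24 and 2.06 without. It was lower on both slides in all 3 comparisons, with differences of -0.63 (SE 0.80) with shRNA1, -0.48 with shRNA2 and -0.32 with DEX, all with adjusted p of 0.92 or above. Npat, a coactivator of histone transcription, was at -0.54 (SE 0.54), -0.11 and 0.05, and was well above background on 4 of 8 arrays. Eri1, an exonuclease that acts on the histone 3′ end, was at -0.68 with shRNA1 and -0.57 with shRNA2. Zcchc11, a uridylyl transferase, was at 0.69 with shRNA1 and -0.35 with DEX.

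The 11 replication-independent histone genes, whose mRNAs are polyadenylated, had medians of 0.16 with shRNA1, 0.11 with shRNA2 and -0.16 with DEX, or -0.02, 0.09 and -0.08 relative to all genes. H2afx, the H2A.X gene that also gives a stem-loop mRNA, had 3.12 and 3.58 with shRNA1, 3.29 and 3.56 with shRNA2, 3.13 and 3.09 in control cells with DEX, and 3.58 and 3.65 without. Its differences were 0.24, 0.32 and -0.51 (SE 0.30 each). H1f0, the linker histone of differentiating cells, was at 0.71 with shRNA1, 0.85 with shRNA2 and -0.55 with DEX. H1fx, well above background on 5 of 8 arrays, was at 0.36 and 1.02 with the shRNAs. The 23 tested histone chaperone and deposition genes had medians of -0.24, -0.18 and -0.16, or -0.42, -0.20 and -0.08 relative to all genes. On slides 1 and 2 these were -0.56 and 0.067 with shRNA1, and -0.39 and 0.019 with shRNA2. The negative medians with the shRNAs thus came from slide 1. With DEX they were -0.23 and -0.059. Hat1, a histone acetyltransferase for new H4, was at -0.80 with shRNA1 and -0.72 with shRNA2, and the chaperone gene Asf1a at -0.92 with shRNA2.

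**Figure D4:**
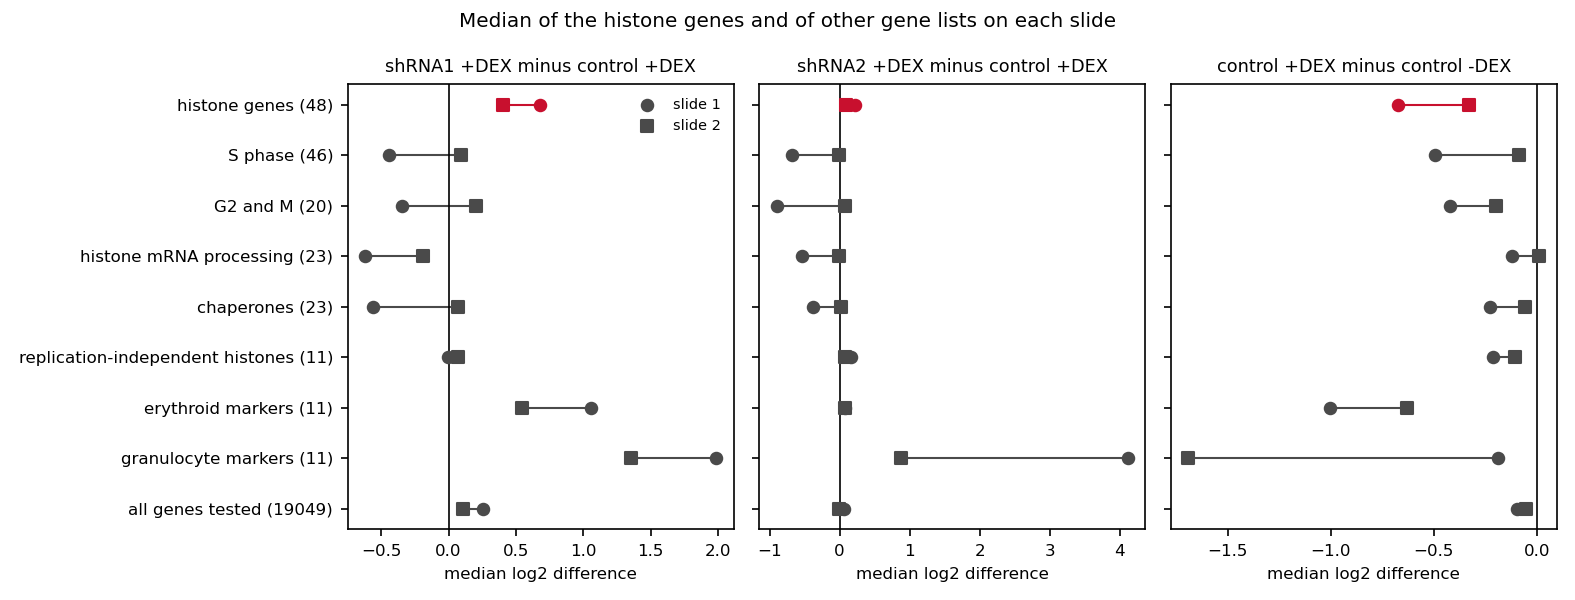
Median log2 difference of the histone genes (red) and of other gene lists (grey) on slide 1 (circles) and slide 2 (squares), in the same comparisons as before and with a separate scale for each panel. With shRNA1 the histone median is 0.68 and 0.40 while that of S phase genes is -0.44 and 0.09, and with shRNA2 the granulocyte markers are at 4.12 and 0.88.

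Markers of cell identity also differed in these comparisons, though none passed the test (lowest adjusted p 0.41, and 0.08 with the block). The 11 erythroid markers had median differences of 0.81 with shRNA1 (11 higher), 0.02 with shRNA2 (6 higher) and -1.04 with DEX (11 lower). Their summed level, on a linear scale relative to the 75th percentile, was 954 to 2581 with shRNA1, 656 to 1921 with shRNA2, 622 to 1246 in control cells with DEX and 844 to 1567 without. Neutrophil and granulocyte precursor markers had medians of 1.70 with shRNA1 and 2.42 with shRNA2 (11 of 11 higher in each), and of -1.05 with DEX (11 lower). On slides 1 and 2 these markers had medians of 1.99 and 1.35 with shRNA1, 4.12 and 0.88 with shRNA2, and -0.19 and -1.69 with DEX. Their summed level was 132 to 143 with shRNA1, 89.3 to 545 with shRNA2, 36.9 to 65.1 in control cells with DEX and 40.4 to 182 without. All 11 were well above background in every group. Monocyte and megakaryocyte markers, 6 tested of each, had medians of 1.18 and 0.87 with shRNA1, 1.63 and 0.94 with shRNA2, and -1.49 and -0.98 with DEX. These came largely from 1 slide in several cases. With shRNA2 the monocyte median was 2.99 on slide 1 and 0.27 on slide 2, and the megakaryocyte median 2.47 and -0.065. With DEX they were -0.47 and -2.49, and -0.62 and -1.38. With shRNA1 they were 1.40 and 0.95, and 1.41 and 0.44. The 3 tested early progenitor markers were lower with shRNA1, at a median of -0.54, and stood at -0.11 with shRNA2 and 0.58 with DEX. Of mast cell markers 4 of 5 were tested, with medians of 0.25, 0.83 and -1.65. Their slide medians were 0.41 and 0.093 with shRNA1, 1.70 and -0.28 with shRNA2, and -0.61 and -2.58 with DEX. The 3 tested hepatocyte markers had medians of -0.22, 0.10 and 0.95. Alb and Ttr of hepatocytes were above background on neither array of any group. The part of these cell markers in the histone differences was not tested. In these bulk samples a change in the number of cells of a type cannot be told apart from a change in histone mRNA per cell.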

How the data were processed

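Mouse RNA labelled with Cy3 was hybridised to 8 single-colour arrays, 2 per group. Quantification by the authors used Agilent Feature Extraction, per the file headers, and the deposited intensity is a linear processed signal, background subtracted, with surrogate values at background. The submitters' processing notes also name limma, without a version. The authors' deposited log2 table (its processing is not given in the sources used here) ranked spots exactly as each array's median signal did (Spearman correlation of 1) with column medians of 6.65 to 6.66; it was not centred per gene and served only as an alternative.

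There were 44397 spots to an array, 1377 of them controls. Spots with an outlier mark were dropped, spots of 1 probe averaged, and 441 of 39429 probes without a usable spot on every array left out. The log2 signal minus the array's 75th percentile was fitted in R 4.3.3 by limma 3.58.1 (functions lmFit, then eBayes), all 4 groups in 1 fit without a block, with Benjamini-Hochberg adjustment over 19049 genes at 0.05. On simulated data the fit returned the size of known changes on average, but at this number of arrays it called no change of the smallest simulated size (2-fold) and only some of the larger ones, so a count of 0 calls does not show that levels were equal. The number of arrays limits the precision.

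Replicate numbers pair the arrays because each number is a slide, per the file headers; slide differences correlated between groups at 0.43 to 0.86 over all genes. The members and gene lists were chosen with earlier results of these data known. Named histone genes are the 5 highest and 5 lowest per comparison and those differing at least 2-fold on both slides; others were named after their values were seen. For each other list at most 4 genes per comparison were eligible, those with the largest differences, and Slbp, Npat and H2afx always. Names follow the array; 48 members matched RefSeq. Alternatives were other scalings, normexp background correction (offset 50, with the local background of outlier spots set to the array's median), the authors' values, filters on dim probes, kept outlier spots, the mean over probes, the slide block and each array left out. Plots used matplotlib. The values of 1 marker list are not reported here.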

Additional observations from a re-analysis of the deposited data

How the results depend on the processing

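The number of histone genes passing the test was 0 in all 4 comparisons under every alternative tried, each array left out included, with and without the replicate block. For all genes the replicate block raised the count of calls to 42 with DEX and 1 with shRNA2, and it changed no other call; leaving out each array in turn with the replicate block gave 0 to 110 with DEX and 0 to 8 with shRNA2. The histone median relative to all genes kept its direction throughout. With shRNA1 (0.34) it was 0.24 with normexp background correction and 0.19 without a filter on dim probes. With shRNA2 (0.19) it was 0.10 with normexp and with the authors' values, and 0.077 without the filter. For shRNA1 against shRNA2 (0.23) it was 0.15 with quantile normalization, 0.19 with normexp, 0.17 with the authors' values, 0.29 without the filter, 0.24 with probes above background on all arrays and 0.22 with the mean over probes. Alternatives chosen after seeing the data gave 0.15 without members that share letters and 0.24 without bright members, with or without dim ones. The cause of these moves was not tested.

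Leaving out each array in turn gave medians relative to all genes of -0.56 to -0.26 with DEX, 0.26 to 0.41 with shRNA1, 0.12 to 0.22 with shRNA2 and 0.17 to 0.35 for shRNA1 against shRNA2. With the replicate block these were -0.53 to -0.27, 0.31 to 0.47, 0.054 to 0.25 and 0.20 to 0.28. Arrays that moved a value by over 1.5 times were control without DEX replicate 1 (-0.26 with DEX), shRNA1 replicate 2 (0.35 between the shRNAs), control with DEX replicate 2 (0.12 with shRNA2) and, with the block, control with DEX replicate 1 (0.054) and shRNA2 replicate 2 (0.087) for shRNA2. Among single named genes, 39 of 799 values with DEX, 52 of 821 with shRNA1, 37 of 820 with shRNA2 and 50 of 796 between the shRNAs changed sign under an alternative. Signals near background limit Hist1h1d and Hist3h2bb-ps.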
